A study of Homo sapiens with 3 samples.

Results

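The septins studied here are 7 genes that the deposited tables list under names turned into dates, namely 2-Sep, 6-Sep, 7-Sep, 8-Sep, 9-Sep, 10-Sep and 11-Sep for SEPT2, SEPT6, SEPT7, SEPT8, SEPT9, SEPT10 and SEPT11. They were found by those names, which are unique for the 7 genes, among the 57820 genes of each table, and all 7 passed the minimum of 20 counts over both libraries, as did 10811 genes in all. The RNA came from ACHN, an established human renal carcinoma cell line that stably expressed a Flag-tagged form of MEX3A, a protein that binds RNA through KH domains. The Flag group is the RNA precipitated with an anti-Flag antibody and the IgG group the RNA precipitated with IgG, the background of the method, each from formaldehyde-fixed cells of that same overexpressing line and each with 1 library. Input RNA was not analysed here, so a level in a precipitate mixes how much of an RNA the cells held with how well it was recovered, and these cannot be told apart. The labels give no line without MEX3A-Flag, and do not say whether the line was 1 clone.

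Septins are GTP-binding cytoskeletal proteins that join end to end into rods and filaments along membranes, actin and microtubules, and they are known for their part in cytokinesis and at the base of cilia. Mammalian septins fall into the SEPT2, SEPT3, SEPT6 and SEPT7 groups. A rod takes subunits of different groups in a fixed order, in which members of the same group can replace each other. Among the genes measured here SEPT2 stands for its group, SEPT9 for the SEPT3 group and SEPT7 for its own, while SEPT6, SEPT8, SEPT10 and SEPT11 all belong to the SEPT6 group. The deposited tables hold no sequences, and no protein sequence was used here.

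Depth was 5498124 counts in the Flag precipitate, against 3412864 in the IgG precipitate. MEX3A itself had 103 counts in the Flag precipitate and 5 in the IgG precipitate, a ratio of 12.8 (5.31 to 40.2). Of 10 renal markers, 8 had at least 10 counts in each library, and their summed level was 834.98 TPM in the Flag precipitate and 725.81 TPM in the IgG precipitate. CA9 was at 0 in both. The blood and liver markers were all at 0, and of the other non-renal markers found COL1A1, at 875 Flag and 637 IgG counts, was the only one with at least 10 counts. Ratios below are Flag over IgG CPM, the counts of a gene scaled to a common library total, and each is followed by an exact 95% counting interval in parentheses. As each group has 1 library, the ratios were not checked by replicates, p-values are not given, and an interval covers counting error only. A gene was called enriched when its interval lay wholly above 2 and depleted when it lay wholly below 0.5.

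By total counts SEPT10, SEPT2, SEPT11, SEPT7 and, less so, SEPT8 had ratios above 1, and SEPT9 and SEPT6 had ratios below 1. SEPT6 rests on 50 counts in each library, and its 99% interval (0.363 to 1.06) reached above 1. By the rules above 4 of the 7 septins were enriched and 0 were depleted, against 28.7% and 1.32% of all genes that passed the minimum. All 7 septins had at least 100 counts, and among all genes with at least 100 counts the shares were 37.9% and 1.62%. The median ratio of the septins was 2.57, against 1.93 for all genes that passed the minimum. The septin ratios spanned the range from 0.621 to 7.36, while the middle 50% of all genes lay between 1.07 and 3.69. Only SEPT10 lay above that middle range, and only SEPT9 and SEPT6 lay below it.

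SEPT10, a member of the SEPT6 group, had 1138 counts in the Flag precipitate and 96 in the IgG precipitate. These are 207 CPM (195.1 to 219.4) in the Flag precipitate and 28.1 CPM (22.8 to 34.4) in the IgG precipitate. The ratio of 7.36 (5.97 to 9.16) was above that of 91.7% of all genes that passed the minimum. Among the 7 septins it was the one whose whole interval lay above 4, and the one enriched under every scaling tried.

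SEPT2, which ends the rod in current models and supports actin stress fibres and cytokinesis, had 1530 Flag and 317 IgG counts. Its level was 278.3 CPM (264.5 to 292.6) in the Flag precipitate and 92.9 CPM (82.9 to 103.7) in the IgG precipitate, a ratio of 3.0 (2.65 to 3.39). SEPT11, a further member of the SEPT6 group, had 1476 Flag and 348 IgG counts, and a ratio of 2.63 (2.34 to 2.97). SEPT7, the sole member of its group and thus part of every canonical rod, had 1017 Flag and 246 IgG counts, and a ratio of 2.57 (2.23 to 2.96). These 3 genes were called enriched by total counts, but their ratios exceeded those of only 67.7%, 62.6% and 61.7% of all genes. They lay within the middle 50% of all genes, with ratios to each other that counting error did not separate.

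SEPT9, a gene with many isoforms whose protein occupies the centre of longer rods, was the septin with the most counts in the IgG precipitate. It had 854 counts in the Flag precipitate and 628 in the IgG precipitate, or 155.3 CPM (145.1 to 166.1) in the Flag precipitate and 184 CPM (169.9 to 199.0) in the IgG precipitate. The ratio of 0.844 (0.761 to 0.937) lay below 1 by more than counting error, yet far from the threshold for a depleted gene, and 16.2% of all genes had a lower one. SEPT6, after which its group is named, was scarce, with 50 counts in each library. Equal counts at unequal depth gave a ratio of 0.621 (0.411 to 0.938), and 7.31% of all genes had a lower one. SEPT8, also of the SEPT6 group, had 231 Flag and 94 IgG counts and a ratio of 1.53 (1.20 to 1.96), between the enriched septins and these genes.

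**Figure D1:**
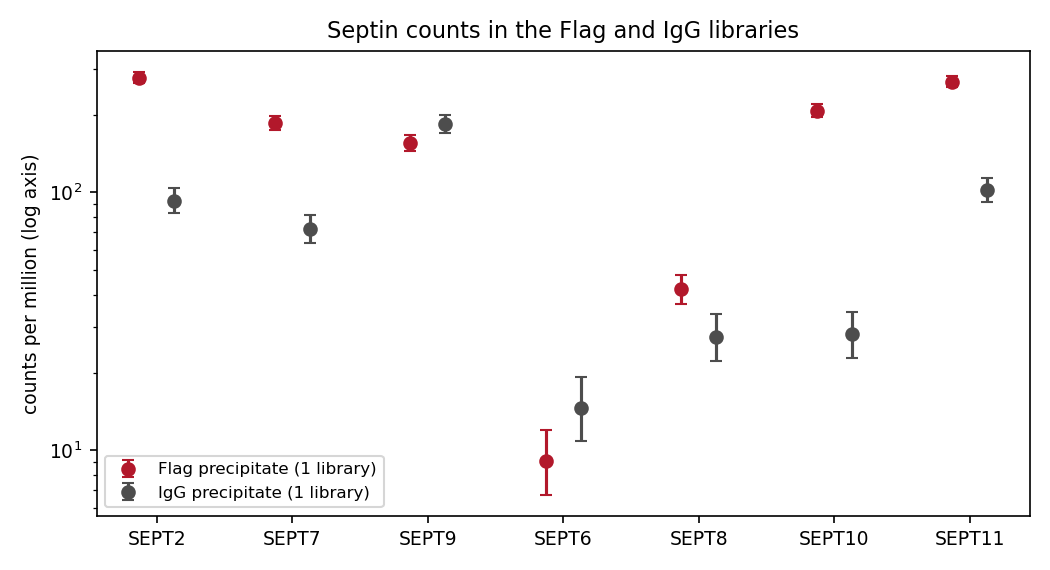
CPM (log axis) of the 7 septins in the Flag precipitate (left point of each pair) and the IgG precipitate (right point), 1 library each, with bars for the exact 95% Poisson interval of the count. The intervals of the 2 libraries are apart for SEPT2, SEPT7, SEPT8, SEPT10 and SEPT11, which are higher in the Flag precipitate. They are also apart for SEPT9, which is lower, and they overlap for SEPT6. How often such intervals are apart among all genes was not counted.

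The 4 members of the SEPT6 group did not share a ratio. The ratio of SEPT10 was 11.9 times that of SEPT6, 4.82 times that of SEPT8 and 2.79 times that of SEPT11. Summed over the group, 2895 Flag and 588 IgG counts gave a ratio of 3.06 (2.80 to 3.35), close to the 3.0 of SEPT2. SEPT11 and SEPT10 together supplied most of the counts behind that sum. Over all 7 genes the sum was 6296 Flag and 1779 IgG counts, a ratio of 2.20 (2.08 to 2.32), and without SEPT10 it was 1.90 (1.80 to 2.01), against the median gene at 1.93.

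**Figure D2:**
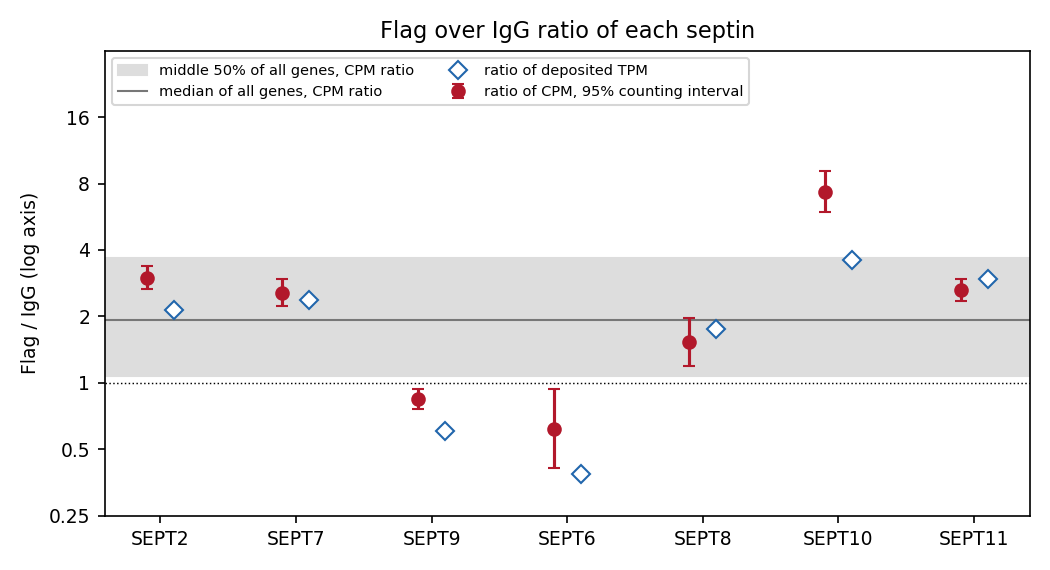
Flag over IgG ratio (log axis) of each septin, as CPM with its exact 95% counting interval (filled points) and as deposited TPM (open diamonds), with the median and the middle 50% of the CPM ratios of all genes with at least 20 counts (line and grey band). The CPM ratio of SEPT10 lies above the band, those of SEPT9 and SEPT6 below it, and the TPM ratio of SEPT10 falls at 3.61.

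A ratio between 2 genes of the same libraries is free of the scaling, since any scaling moves all CPM ratios alike. The 21 pairs of septins were compared in this way, with intervals at a level of 99.8% so that they hold over all pairs together. Each pair was set with the higher ratio first, and in 17 pairs the interval lay wholly above 1. Pairs of other genes were not compared, so how often they would be set apart is not known here. SEPT10 was set apart from each of the other septins, by 2.46-fold over SEPT2 (1.69 to 3.63), the nearest, and by 11.9-fold over SEPT6 (5.80 to 24.2), the farthest. By counts SEPT8 stood apart from all others too, below SEPT7 by a factor of 1.68 (1.08 to 2.60) and above SEPT9 by 1.81 (1.20 to 2.75). The 4 pairs that counting error did not separate were SEPT2 with SEPT7 (1.17, 0.872 to 1.56), SEPT2 with SEPT11 (1.14, 0.874 to 1.48), SEPT11 with SEPT7 (1.03, 0.770 to 1.36) and SEPT9 with SEPT6 (1.36, 0.708 to 2.61).

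The tables also give an effective length for each gene, the length over which its reads are spread given the estimated mix of its transcripts, and this differed between the libraries for several septins. For SEPT10 it was 1949 bases in the Flag precipitate and 956 bases in the IgG precipitate, 2.04 times as long and above the ratio of 92.2% of all genes, whose median was 1.01. SEPT6 had 2784 bases in the Flag precipitate and 1730 bases in the IgG precipitate (1.61 times as long). For SEPT2 the values were 2216 and 1577 bases in the Flag and IgG libraries (1.41 times), and for SEPT9 2844 Flag and 2040 IgG bases (1.39 times). SEPT7 differed less (1.08 times), and SEPT11 (0.892 times) and SEPT8 (0.870 times) were slightly shorter in the Flag precipitate. The middle 50% of all genes lay between 0.899 and 1.30, so SEPT10, SEPT6, SEPT2 and SEPT9 were above it, SEPT11 and SEPT8 just below it, and SEPT7 within it. Which transcripts make up each mix was not analysed here, and the lengths are estimates with no error in the tables.

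**Figure D3:**
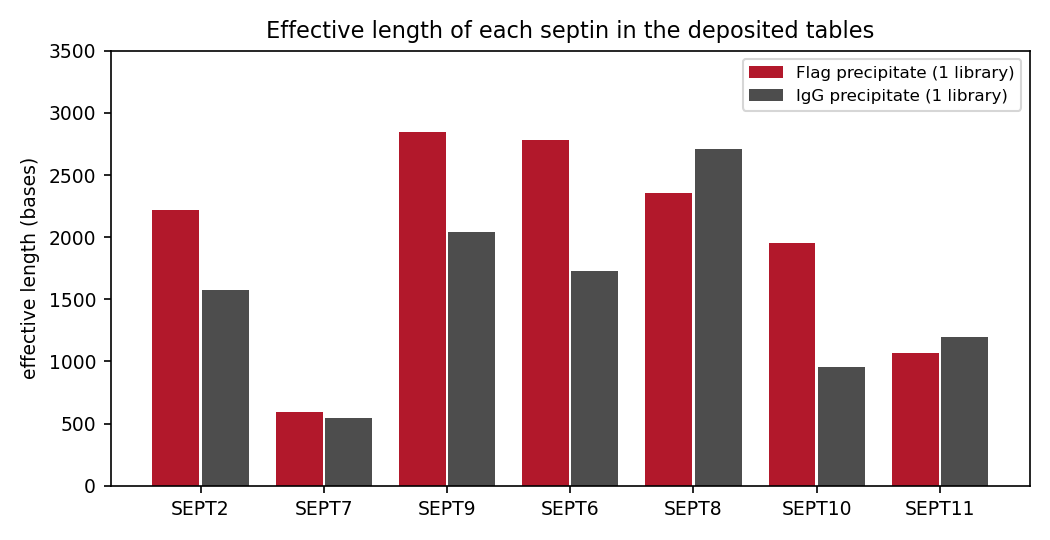
Effective length in bases of each septin in the deposited tables, in the Flag precipitate (left bar) and the IgG precipitate (right bar). SEPT10 has 1949 bases in the Flag precipitate and 956 bases in the IgG precipitate, the widest relative gap, and SEPT7 and SEPT11 have similar lengths in both.

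TPM, which divides counts by this length, therefore gave other ratios than CPM. The TPM ratio of SEPT10 was 3.61, with 105.17 TPM in the Flag precipitate and 29.1 TPM in the IgG precipitate, close to its CPM ratio divided by the 2.04-fold gap in length. SEPT11 followed at 2.96, with 248.28 TPM in the Flag precipitate and 83.99 TPM in the IgG precipitate. SEPT7 had a TPM ratio of 2.37, SEPT2 of 2.14 and SEPT8 of 1.76. The median TPM ratio was 1.72 over all genes that passed the minimum and had a TPM above 0 in the IgG precipitate. SEPT9 had 54.09 TPM in the Flag precipitate and 89.17 TPM in the IgG precipitate, a ratio of 0.607. For SEPT6 the levels were 3.24 TPM in the Flag precipitate and 8.37 TPM in the IgG precipitate, a ratio of 0.387. On this scale the lead of SEPT10 over SEPT11 was 1.22-fold, with an interval that reached 1 (0.846 to 1.80). SEPT8 was likewise no longer set apart from SEPT2, which was 1.22-fold above it (0.789 to 1.85), or from SEPT7, 1.35-fold above it (0.864 to 2.08). Of the 21 pairs 19 kept their order and 15 were set apart by counting error. The order of SEPT2 and SEPT11 turned, with SEPT2 at 0.722 times the TPM ratio of SEPT11 (0.555 to 0.941), and that of SEPT2 and SEPT7 turned within counting error.

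Levels of different genes can be compared per length within a library, and on the TPM scale SEPT7 was the highest septin in both. In the Flag precipitate the order was SEPT7 (309.3 TPM), SEPT11, SEPT2, SEPT10, SEPT9, SEPT8 (17.65 TPM) and SEPT6, and no 2 neighbours had overlapping counting intervals. In the IgG precipitate it was SEPT7 (130.39 TPM), SEPT9, SEPT11, SEPT2 (58.25 TPM), SEPT10, SEPT8 (10.05 TPM) and SEPT6. There SEPT9 (82.3 to 96.4 TPM) overlapped SEPT11 (75.4 to 93.3 TPM), and SEPT8 (8.12 to 12.3 TPM) overlapped SEPT6 (6.21 to 11.03 TPM). The first place of SEPT7 rests on an effective length of 592 bases in the Flag precipitate and 547 bases in the IgG precipitate, the shortest of the 7, and its CPM was below those of SEPT2, SEPT11 and SEPT10 in the Flag precipitate.

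As shares of the summed septin TPM, SEPT9 made up 6.27% in the Flag precipitate and 21.8% in the IgG precipitate. SEPT10 made up 12.2% in the Flag precipitate and 7.11% in the IgG precipitate, and SEPT11 28.8% in the Flag precipitate and 20.5% in the IgG precipitate. SEPT2 had nearly the same share in both, 14.4% in the Flag precipitate and 14.2% in the IgG precipitate. SEPT7 held 35.9% in the Flag precipitate and 31.9% in the IgG precipitate. By rod position, the SEPT6 group as a whole supplied 43.4% of septin TPM in the Flag precipitate and 32.1% in the IgG precipitate. All 7 genes together summed to 862.13 TPM in the Flag precipitate and 409.32 TPM in the IgG precipitate.

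Where 1 lies on the ratio scale depends on the genes that fill each library, and the calls of SEPT2, SEPT7 and SEPT11 depended on it, 3 of the 7. TMM scaling, which lowers every log2 ratio by 0.78, left SEPT10 as the 1 enriched septin at 4.29-fold (3.48 to 5.34), against 12% of all genes enriched. SEPT2 was then at 1.75, SEPT11 at 1.54 and SEPT7 at 1.5, and SEPT8 changed side to 0.889 (0.697 to 1.14). SEPT9 at 0.492 and SEPT6 at 0.362 had intervals that reached above 0.5, so that 0 septins were depleted against 6.12% of all genes. With totals that leave out mitochondrially encoded RNAs and the 10 most abundant genes of each library, SEPT10 (5.85) and SEPT2 (2.38) were enriched, 2 of 7 against 20.3% of all genes, and 0 were depleted against 2.48%. Median-of-ratios scaling gave 1 enriched and 0 depleted septins, against 11.7% and 6.24% of all genes. At a 4-fold threshold on total counts SEPT10 was again the 1 enriched septin, against 8.55% of all genes, and 0 were depleted against 0.222%. With TPM and a call by size alone, SEPT10, SEPT11, SEPT7 and SEPT2 were enriched and SEPT6 depleted, 4 and 1 of 7, against 44.2% and 6.59% of all genes at a pseudocount of 0.1 and 37.7% and 4.96% at a pseudocount of 1.

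**Figure D4:**
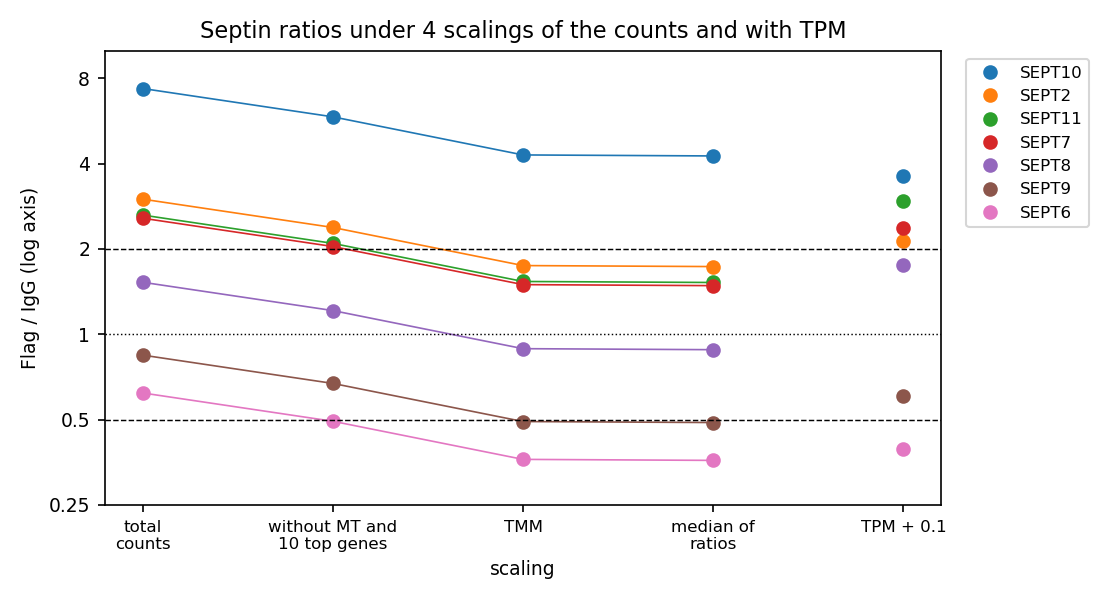
Flag over IgG ratio (log axis) of each septin under 4 scalings of the counts (joined points) and with deposited TPM plus a pseudocount of 0.1 (unjoined points), with dashed lines at 2 and 0.5 and a dotted line at 1. SEPT10 stays above 2 in each column, SEPT2, SEPT11 and SEPT7 lie below 2 with TMM and median-of-ratios scaling, and SEPT8 crosses 1 there.

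Reads of near-identical copies can be divided between rows. The tables hold 8 SEPT7 pseudogenes, of which SEPT7P2 had 36 Flag and 11 IgG counts and the other 7 had 0 in both libraries. Adding them to SEPT7 gave a ratio of 2.54 (2.22 to 2.93), against 2.57 without them. SEPT10P1 had 1 count in each library, and with it the ratio of SEPT10 was 7.29 (5.92 to 9.06). SEPT2P1 was at 0 in both. The counts of the 7 septins were whole numbers in both libraries, within 0.01, except that of SEPT9 in the Flag precipitate.

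The other septins had few counts in either precipitate. Behind 7 further date-named rows stand 6 septin symbols, and none of those rows reached 20 counts. SEPT5, of the SEPT2 group, had 4 Flag and 13 IgG counts, SEPT4 of the same group 4 in each, and SEPT3 0 in the Flag precipitate and 3 in the IgG precipitate. SEPT1 had 3 Flag counts and 1 IgG count in 1 of the 2 rows that bear its date and 0 in the other. SEPT12 and SEPT14 had 0 in both. A count of 3, the floor used here in place of 0, is 0.546 CPM at the Flag depth and 0.879 CPM at the IgG depth. SEPT2, SEPT7, SEPT9 and the SEPT6 group thus carried nearly all septin counts of both precipitates. The row 15-Sep, a selenoprotein gene and no septin, was left out. It had 198 Flag and 9 IgG counts, a ratio of 13.7 (7.05 to 30.3).

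SEPT2 had the most counts of the 7 over both libraries. The 3 protein-coding genes nearest to it, by distance in log2 Flag CPM and log2 IgG CPM over these 2 libraries, were SBF1 (0.03), KRT80 (0.11) and RAB13 (0.12). SBF1, which encodes a myotubularin-related pseudophosphatase, had 1564 Flag and 317 IgG counts. Of the 10071 genes compared, 9 lay within 0.25 of SEPT2.

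Genes that work with septins were measured alongside. Of 20 partners and regulators, 15 passed the minimum, of which 6 (40%) were enriched and 0 depleted, against 28.7% and 1.32% of all genes, with a median log2 ratio of 0.93 against 0.95 for all genes. CD2AP, an adaptor at actin-rich membranes, was highest with 1713 Flag and 122 IgG counts, a ratio of 8.72 (7.25 to 10.6). CDC42EP3, a Borg protein through which CDC42 acts on septin filaments, followed with 536 Flag and 62 IgG counts and a ratio of 5.37 (4.12 to 7.10). CIT, the citron kinase of the midbody, had 1032 Flag and 1326 IgG counts and a ratio of 0.483 (0.445 to 0.524), which was not called by total counts and was the 1 partner gene depleted with TMM scaling. MAP4, a microtubule-associated protein that septins compete with, had a ratio of 0.976 (0.888 to 1.07). Anillin, encoded by ANLN and the scaffold that brings septins to the cleavage furrow, had 1212 Flag and 395 IgG counts, which is a ratio of 1.90 and no call; it was chosen after its values were seen.

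Of 34 cytokinesis and contractile ring genes, all passed the minimum, 7 (20.6%) were enriched and 2 (5.88%) depleted, against 28.7% and 1.32% of all genes. Their median log2 ratio was 0.32 by total counts, -0.46 with TMM scaling, -0.47 with median-of-ratios scaling and -0.01 with the reduced totals, where all genes had medians of 0.95, 0.17, 0.16 and 0.61. VPS4B, an ATPase that acts on the abscission machinery, had a ratio of 5.83 (4.21 to 8.30). ECT2, the exchange factor that activates RHOA at the furrow, had 458 Flag and 63 IgG counts and a ratio of 4.51 (3.46 to 5.97), but 2.25 by TPM, with an effective length 2.01 times as long in the Flag precipitate, a gap like that of SEPT10. The nonmuscle myosin heavy chains were the 2 depleted genes. MYH10 had 4684 Flag and 12008 IgG counts and was 4.13-fold lower in the Flag precipitate (3.99 to 4.27), and MYH9 had 28501 Flag and 41232 IgG counts and was 2.33-fold lower (2.30 to 2.37).

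The 32 entering rows of actin, tubulin and intermediate filament genes, the other filament systems of the cell, had 4 enriched genes (12.5%) and 1 depleted (3.12%), against 28.7% and 1.32% of all genes, and a median log2 ratio of -0.31 against 0.95. With TMM scaling 3 were enriched and 13 depleted, against 12% and 6.12% of all genes. The actin cross-linkers ACTN4 (ratio 19.9, 18.5 to 21.4) and ACTN1 (10.9, 9.99 to 11.9) were highest, both with fractional counts, which means that some reads were shared out among genes. The tropomyosin gene TPM2 had 88 Flag and 183 IgG counts and was 3.35-fold lower in the Flag precipitate (2.58 to 4.37). PLEC, a cytolinker, had a ratio of 0.597 (0.577 to 0.617).

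Of 18 genes of the ciliary base and transition zone, where septins form a diffusion barrier, 14 passed the minimum, 4 (28.6%) were enriched and 1 (7.14%) was depleted, against 28.7% and 1.32% of all genes. The median log2 ratio was 0.48 by total counts, -0.30 after TMM scaling and -0.31 under median-of-ratios scaling, against 0.95, 0.17 and 0.16 for all genes. TCTN2, a transition zone gene with fractional counts, had 328 Flag and 13 IgG counts and a ratio of 15.7 (9.03 to 29.7). TMEM216 had 31 Flag and 0 IgG counts and was called enriched, as the exact interval of its ratio began at 4.91. With a floor of 3 counts in place of the 0, the ratio was 6.41, a value that leaves out the counting error of the 31. CEP290, also with fractional counts, had 17129 Flag and 38109 IgG counts and was 3.58-fold lower in the Flag precipitate (3.52 to 3.65). TCTN3 lay at 0.694 (0.341 to 1.42), without a call.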

How the data were processed

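RNA immunoprecipitation sequencing of ACHN cells was analysed from the Flag and IgG tables. The expected counts were deposited as gene-level tables in RSEM layout and are not normalized, per the file headers; TPM and effective length were also deposited, per the file headers. Per the submitters' processing notes, the tools were RSEM and STAR and the build names GRCh37 and hg19. No source used here gives the annotation release, read filters or strand setting, so reads of antisense partners cannot be told apart. Expected counts were rounded (numpy 2.4.6) and divided by the totals of 5498124 (Flag) and 3412864 (IgG) to give CPM. A gene entered with 20 or more counts summed over the libraries. Ratios have exact 95% Clopper-Pearson intervals from the Flag share of both counts (scipy 1.17.1), and pairs of septins exact conditional odds ratio intervals. TPM pair intervals are those of the counts moved to the TPM ratio. A count of 0 was set to a floor of 3 in medians, quartiles and ranks of CPM ratios. The same floor was used in the floored ratio of TMEM216 and in the CPM values given for SEPT12 and SEPT14. Intervals and calls used the 0 itself. Reads copied by PCR may come from 1 molecule, so that intervals and the floor describe counting error alone. The calls were tested on simulated counts that held counting error alone, with planted changes well beyond the threshold. That check therefore does not cover variation between libraries or precipitations, or genes near the threshold.

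Alternatives were TMM from edgeR 4.0.16, DESeq2's median of ratios (version 1.42.0), reduced totals (leaving out mitochondrial genes and each library's 10 most abundant), TPM with a pseudocount of 0.1 or 1 and no interval, 0.5 counts added, minimums of 100 or none, thresholds of 1.5-fold and 4-fold, a 99% interval, and sums with named copies. The named genes are the 7 septins, MEX3A, all other septin rows, the 3 genes nearest to SEPT2, and at each end of 4 lists the 2 genes with the highest lower or lowest upper bound. ANLN and the markers CA9 and COL1A1 fall outside this rule and were named after their values were seen. The members and lists were chosen with earlier results of these data known. RefSeq holds each septin symbol as a synonym of its current SEPTIN symbol; its build differs from that of the files, so no coordinates are given.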

Additional observations from a re-analysis of the deposited data

How the results depend on the processing

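The count of enriched septins was 4 of 7 by total counts. It was 1 with TMM scaling, 1 with median-of-ratios scaling and 1 at a 4-fold threshold, where SEPT10 remained in each case, and 2 with totals reduced by mitochondrial and the 10 most abundant genes. The count of depleted septins was 0, and 1, SEPT6, with TPM at either pseudocount (0.394 and 0.453), where a call rests on size alone. The median log2 ratio of the septins, 1.36 by total counts, was 0.58 with TMM, 0.57 with median-of-ratios scaling, 1.03 with the reduced totals, and 1.09 and 1.08 with TPM at pseudocounts of 0.1 and 1. SEPT8 fell on the other side of 1 with TMM (0.889) and median-of-ratios scaling (0.882). The shifts of scaling follow from its construction, since it moves every ratio alike; for TPM they follow from the effective lengths and the totals. Of 34 recomputed counts and medians of septins, 23 kept their value at 2 decimals. Part of these could not change, since all 7 septins have at least 100 counts and thresholds and interval levels do not enter a median. Of 45 ratios, 33 kept their call and their side of 1, though not their size. SEPT10, for example, went from 7.36 to 3.61 with TPM at a pseudocount of 0.1. Of 88 list counts, 53 stayed within a factor of 1.5 of the count by the main rules. Of all genes, 28.7% were enriched and 1.32% depleted by total counts, 12% and 6.12% with TMM, and 11.7% and 6.24% with median-of-ratios scaling. These shares were 20.3% and 2.48% with the reduced totals. With TPM they were 44.2% and 6.59% at a pseudocount of 0.1, and 37.7% and 4.96% at 1. At 4-fold they were 8.55% and 0.222%, at 1.5-fold 40% and 2.76%, at 99% 23.5% and 1.06%, and at 100 counts 37.9% and 1.62%. The list counts below are to be read beside these shares. Enriched partner genes numbered 6, but 3 with each of the 3 scalings and at 99%, and 2 at 4-fold; depleted ones numbered 0, but 1 with the scalings and at 1.5-fold and 2 with TPM. For cytokinesis genes, 7 enriched became 3, 2 and 4 with TMM, median-of-ratios and reduced totals. They became 11 and 10 with TPM at pseudocounts of 0.1 and 1, 11 at 1.5-fold and 1 at 4-fold. The 2 depleted cytokinesis genes became 6, 6 and 4 with the scalings, 3 with TPM, 4 at 1.5-fold and 0 at 4-fold. Depleted filament genes numbered 1, but 13 with TMM and median-of-ratios scaling, 2 with reduced totals and TPM, 5 at 1.5-fold and 0 at 4-fold. Ciliary genes had 4 of 14 enriched, but 2 with the scalings and at 4-fold, and 6 and 5 with TPM at pseudocounts of 0.1 and 1. By total counts 1 ciliary gene was depleted, and 0 at 4-fold. At a minimum of 100 counts only 3 ciliary genes entered, of which 2 were enriched and 1 depleted. No paired analysis was possible because each group has 1 library. Depth limits SEPT6 most, with 50 counts in each library.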
